A study of Bos taurus with 6 samples.

Results

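WNT proteins are secreted lipid-modified ligands that bind Frizzled (FZD) receptors together with the co-receptors LRP5 and LRP6. Binding recruits the scaffold protein AXIN1 or AXIN2 to the membrane, the complex that marks β-catenin for destruction is inhibited, and β-catenin reaches the nucleus, where it acts with TCF and LEF factors, while other ligands signal through FZD receptors without β-catenin. Secreted antagonists act outside the cell, SFRP proteins by binding ligands and DKK proteins by binding LRP5 and LRP6, and in skin the pathway is known for its part in hair follicle formation, the identity of dermal fibroblasts and wound repair.

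The methylation signal of these genes was described in dermal fibroblasts. Every window on chromosomes 1 to 29 was taken whose gene label is a numbered WNT, FZD, SFRP or DKK symbol, or LRP5, LRP6, AXIN1 or AXIN2. This gave 386 of the 902984 windows of the deposited data and 39 of the 26250 labelled genes, or 386 of 335024 labelled windows and 39 of 24053 genes on these chromosomes. The members were 17 WNT ligands with 126 windows, 10 FZD receptors with 56, the 2 co-receptors with 91, 8 antagonists (4 SFRP and 4 DKK genes) with 92, and the 2 scaffolds with 21 windows. The rule used labels only and no measured value, but it was set with earlier results of these data known.

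The data came from MIRA-Seq, in which sonicated DNA bound by methyl-CpG binding proteins is pulled down and sequenced, so that a region gains reads with more methylation as well as with more CpG sites, which cannot be told apart in these values. The libraries came from fibroblasts of skin biopsies of 3 Holstein heifers, each sampled when 5 months old and again when 16 months old, grown to passage 5 and given no treatment, with 1 library per animal and age (n = 3 animals, 6 libraries). The cells were expanded in culture, and each age of each animal is represented by 1 culture, so the spread between cultures of 1 animal at 1 age was not measured. No expression was measured in these libraries, so the labelled cell type was not checked against marker genes.

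Signal is given as RPKM, the reads of a window per kb of its length and per M matched reads of the library, where M is 1e6. The start of a gene was its first labelled window on its strand, and the body was all its later labelled windows. Windows lie on a fixed grid of 3 kb, so a start window can hold sequence on either side of the transcription start. Positions are those of the bovine assembly UMD v3.1 as the deposited data give them, and a window was called coding where its label carries a number in the column for coding sequence. What that number counts is not stated, and the single window of FZD8 carries the number 3 although the gene is usually described with a single coding exon, so the reading is uncertain. The libraries held 19.9 to 43.6 M reads in windows, and a member window held a median of 13.2 reads on average over libraries, so single windows of low signal rest on few reads.

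The cultures of animal 3 stood apart from the others in windows of high signal. Of the 69 member windows with a mean of at least 1 RPKM, both libraries of animal 3 were the lowest in 67 (97.1%), at 0.473 times the mean level of the other 4 libraries. Over all windows of that level on chromosomes 1 to 29, they were the lowest in 86.2%, at 0.924 times. In member windows under 0.1 RPKM the ratio was 1.24, against 1.35 over all windows. The SD over 6 libraries given below therefore holds a difference between animals, and its part in the levels was not tested beyond values without that animal.

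The pathway genes carried more signal than labelled windows at large. Of the 386 member windows 106 (27.5%) were above 0.5 RPKM, against 9.65% of all labelled windows, and the median member window had 0.0856 RPKM against 0.0421. Most of the 106 lay in few genes, with 28 in LRP5, 20 in WNT7A, 12 in AXIN1 and 8 in AXIN2. By gene, 15.4% of member starts and 30.6% of member bodies were above 0.5 RPKM, against 11.1% and 19.3% over all genes. Many member windows nonetheless had almost no signal, and 206 lay under 0.1 RPKM. Of member starts 61.5% and of member bodies 30.6% lay under that level, against 67.5% and 52.1% over all genes. At the start, the median over the 39 genes was 0.0808 ± 0.0129 RPKM (mean ± SD of the library medians, n = 6) against 0.0471 ± 0.0169 over all genes. In the body it was 0.288 ± 0.0387 RPKM over the 36 genes with more than 1 window, against 0.0895 ± 0.0205 over all genes. These are descriptions of the lists, with no test, and the 6 libraries behind each SD come from 3 animals.

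The WNT ligands had more signal in the body than at the start. Their median was 0.0587 ± 0.0193 RPKM at the start and 0.355 ± 0.0588 RPKM in the body (n = 6), and without animal 3 these were 0.0580 and 0.391. At the start, 13 of 17 ligands (76.5%) lay under 0.1 RPKM and only WNT9A and WNT5B (11.8%) lay above 0.5, near the shares over all gene starts, 67.5% and 11.1%. In the body 7 of 17 (41.2%) were above 0.5 and 3 (17.6%) were under 0.1 RPKM, against 19.3% and 52.1% of all gene bodies. The library medians of the body, from 0.277 to 0.410 RPKM, did not overlap those of the start, from 0.0277 to 0.0837.

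WNT9A, a ligand of the joint-forming regions of the skeleton, lies on chr7:3068646-3074645 and was the exception with much signal at its start. Its start window had 2.42, 2.43 and 0.953 RPKM at 5 months (here and below in the order of animals 1, 2 and 3) and 2.54, 2.39 and 0.958 RPKM at 16 months. The mean, 1.95 ± 0.770 RPKM, was above 98.6% of all gene starts, and both cultures of animal 3 were far below the other 4. WNT5B (chr5:108636706-108651705), which signals mainly without β-catenin, was next with 1.28, 1.54 and 0.681 RPKM at 5 months and 1.45, 1.55 and 0.568 RPKM at 16 months. WNT9A was higher than WNT5B in each of the 6 libraries. WNT10A, known for its part in teeth and other skin appendages, came after these at 0.430 ± 0.0916 RPKM, and no library of it reached the lowest of WNT5B except the 16-month culture of animal 2, at 0.581 RPKM.

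At the other end stood WNT8A, a ligand of early embryonic axis formation, whose start held 2.17 reads on average and 0.0145 ± 0.0179 RPKM. WNT2 followed with 0.0240 RPKM at the start. At such counts the order among the low starts was not detectable.

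In the body the order of ligands was another. WNT7A (chr22:58809067-58875066), an epidermal ligand, led with 1.69, 1.55 and 0.859 RPKM at 5 months and 1.63, 1.69 and 0.811 RPKM at 16 months. WNT9A, with 1.23 ± 0.450 RPKM, and WNT9B (chr19:45970675-45979674), a kidney and craniofacial ligand, with 1.22 ± 0.481 RPKM, did not differ beyond their spread. WNT8A and WNT16 had the lowest bodies, with 0.0424 ± 0.0271 and 0.0673 ± 0.0245 RPKM. In WNT7A, 20 of 22 windows were above 0.5 RPKM, so its signal was spread over the gene, and 2 of its windows were among the 10 strongest of all members.

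In other ligands the signal sat at the end of the gene. WNT3 (chr19:46021675-46072674), needed for the embryonic axis, had its highest window at the last of 17, with 2.13 ± 0.720 RPKM and 36.4% of the reads of the gene. In WNT3A (chr7:2948646-3002645), its close relative, the last of 18 windows had 1.20 ± 0.324 RPKM. WNT5A, the classic ligand of planar cell polarity, had 65.8% of its reads in its 6th of 7 windows, at 1.97 ± 0.715 RPKM. Over the 36 members with more than 1 window, the highest window was the last in 14 and the start in 7. Of these 36, 10 have only 2 windows, so their highest window can only be the start or the last. The share over all genes was not computed, so these counts do not set the members apart.

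**Figure D1:**
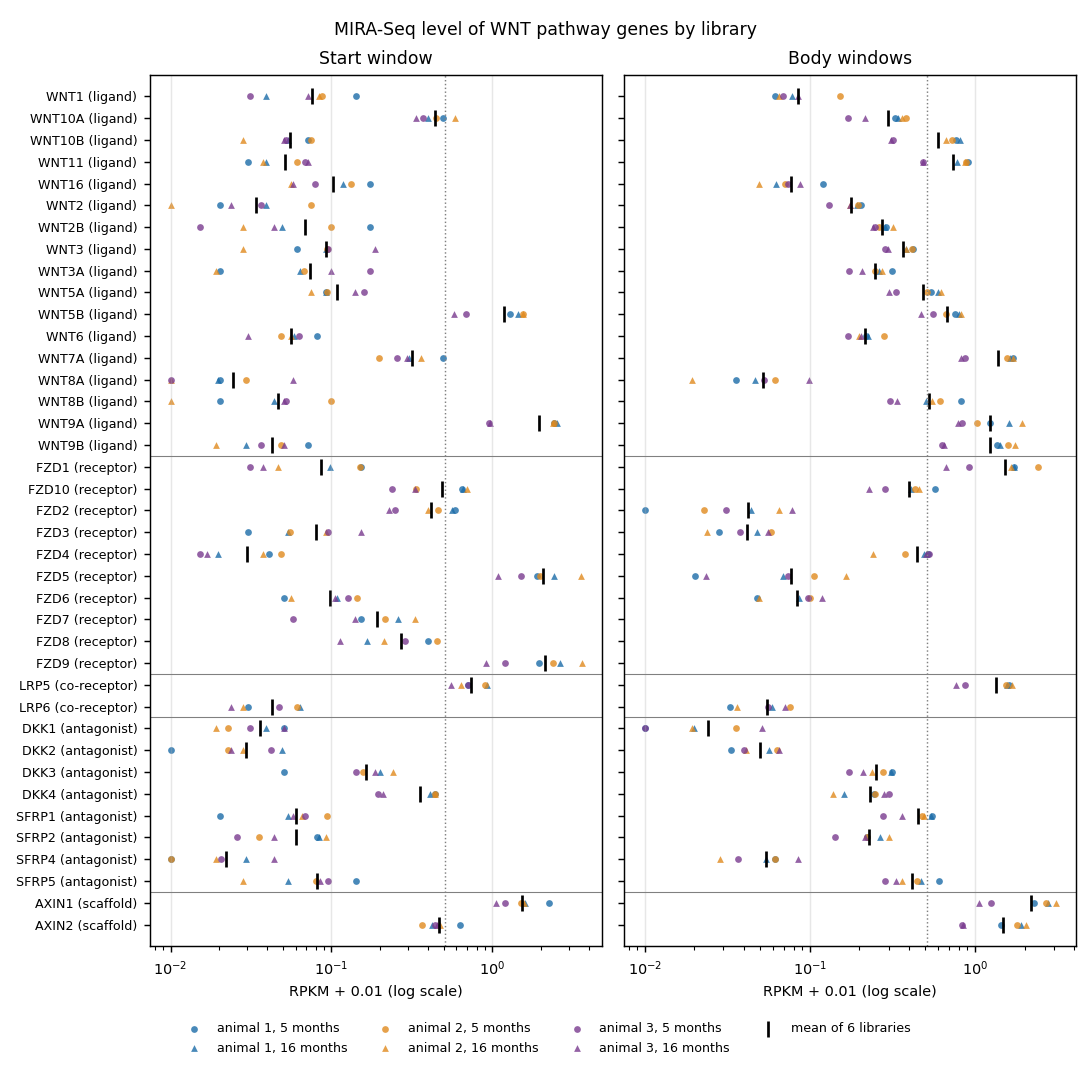
RPKM + 0.01 on a log axis in the start window (left) and the body windows (right) of the 39 genes, by role, with 1 point per library (colour: animal, shape: age) and a bar at the mean of 6 libraries. The dotted line is the level of 0.5 RPKM: only 2 of 17 ligand starts lie above it but 7 of 17 ligand bodies do, and the points of animal 3 lie left of the others in genes of high signal.

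The FZD receptors had a start median of 0.218 ± 0.0559 RPKM over 10 genes (n = 6), or 0.250 without animal 3. In the 7 receptors that have a body, the start median was 0.121 ± 0.0263 RPKM and the body median 0.0939 ± 0.0391 RPKM (0.0919 without animal 3), which did not differ beyond their spread. FZD genes are often compact, many with a single coding exon, and 3 of the 10 (FZD7, FZD8 and FZD9) had 1 labelled window and 5 had 2.

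FZD9 (chr25:34245101-34248100), a receptor deleted in Williams syndrome, had 1.94, 2.38 and 1.19 RPKM at 5 months and 2.65, 3.60 and 0.910 RPKM at 16 months in its only window. FZD5 (chr2:96467534-96473533), a receptor of eye and gut, had 1.89, 1.98 and 1.51 RPKM at 5 months and 2.41, 3.58 and 1.08 RPKM at 16 months in its start window. These means, 2.11 ± 0.988 and 2.07 ± 0.862 RPKM, did not differ beyond their spread and were above 98.8% of all gene starts. FZD10 followed with 0.476 ± 0.205 RPKM, and FZD4 and FZD3 had the lowest receptor starts, 0.0198 ± 0.0142 and 0.0702 RPKM.

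In the compact FZD genes nearly all reads lay in 1 of 2 neighbouring windows, and which of them it was differed from gene to gene. FZD5 had 96.8% of its reads in the start window and FZD2 92.5%, whereas FZD1 had 95.3% and FZD4, a retinal vessel receptor that also binds norrin, 96.2% in the second. FZD10 was split, with 55.0% at the start. In FZD1 (chr4:8489005-8495004) the start had 0.144, 0.142 and 0.0213 RPKM at 5 months and 0.0880, 0.0369 and 0.0274 RPKM at 16 months. Its second window had 1.71, 2.39 and 0.916 RPKM at 5 months and 1.72, 1.64 and 0.664 RPKM at 16 months, so the lowest of these was above the highest start.

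The windows beside the high FZD windows often carried little signal. The window upstream of the start had 0.0221 RPKM in FZD5, 0.0420 in FZD2, 0.0717 in FZD1 and 0.00459 in FZD8. FZD1 had 0.00303 RPKM in the first window past its label. FZD4 and FZD9 lay in signal that went on, with 0.335 and 0.611 RPKM in the first window past the gene. Among receptor bodies FZD1 was followed by FZD4 with 0.435 ± 0.115 and FZD10 with 0.390 ± 0.125 RPKM. The lowest were those of FZD2 and FZD3, both at 0.0320 RPKM, and the FZD3 gene had 30 of its 31 windows under 0.1 RPKM.

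**Figure D2:**
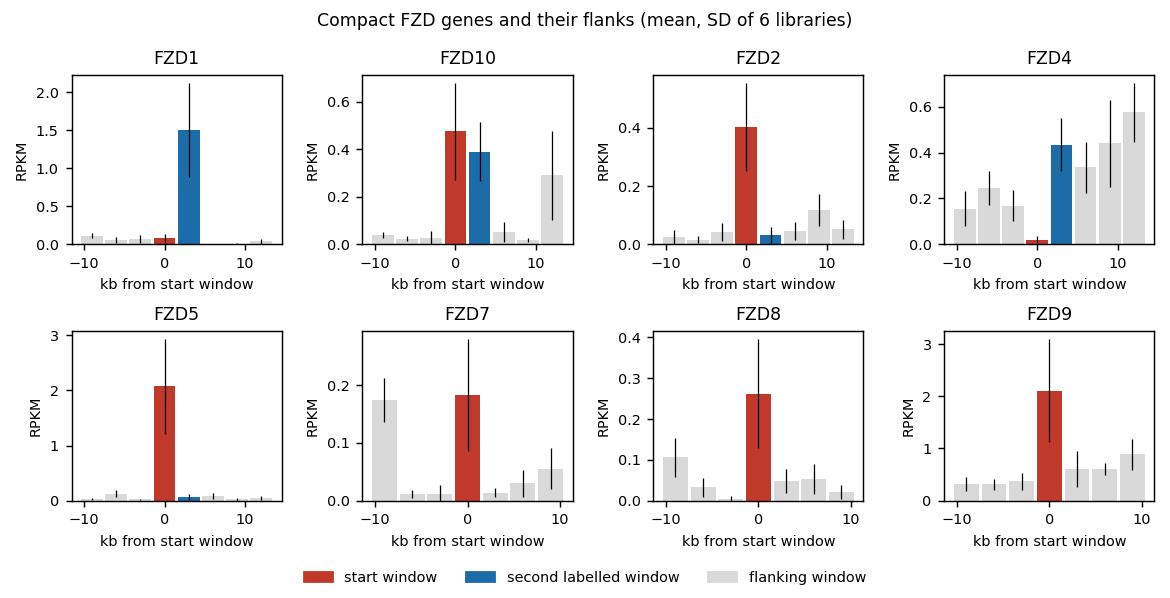
RPKM (bars: mean, lines: SD, n = 6 libraries) in the labelled windows of 8 compact FZD genes and in 3 windows on each side, against distance from the start window in kb, with a separate vertical scale for each gene. FZD5 and FZD2 have their high window at the start and FZD1 and FZD4 in the second window, while FZD7, FZD8 and FZD9 have 1 labelled window.

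The co-receptors, which are close relatives with the same layout of domains, were unlike in signal. LRP5 (chr29:46478919-46574918), in which mutations change bone mass, had a body level of 1.61, 1.55 and 0.858 RPKM at 5 months and 1.57, 1.66 and 0.758 RPKM at 16 months. LRP6 (chr5:97996706-98173705) had 0.0230, 0.0658 and 0.0456 RPKM at 5 months and 0.0493, 0.0262 and 0.0610 RPKM at 16 months. The groups of 6 values did not overlap, and the means were 1.33 ± 0.410 and 0.0451 ± 0.0176 RPKM, above 94.2% and 32.2% of all gene bodies. The difference ran through the whole gene, since 28 of 32 LRP5 windows were above 0.5 RPKM and 54 of 59 LRP6 windows were under 0.1, with the highest LRP6 window at 0.139 RPKM, the level of the lowest LRP5 window. The starts had 0.730 ± 0.145 RPKM in LRP5 and 0.0325 ± 0.0175 RPKM in LRP6.

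The scaffolds were the strongest group, but some windows outside their labels reached the same level. AXIN1 (chr25:313801-349800), the core scaffold of the β-catenin destruction complex, had a body level of 2.28, 2.67 and 1.25 RPKM at 5 months and 2.76, 3.09 and 1.05 RPKM at 16 months, a mean of 2.18 ± 0.844 above 98.1% of gene bodies. All 12 of its windows were above 0.5 RPKM, its start included, at 1.52 ± 0.417 RPKM. AXIN2 (chr19:62834675-62861674), itself a target gene of the pathway, had a body of 1.47 ± 0.528 RPKM and a start of 0.455 ± 0.0917 RPKM, with 8 of 9 windows above 0.5. The start of AXIN2 had 0.626, 0.354 and 0.431 RPKM at 5 months and 0.411, 0.461 and 0.445 RPKM at 16 months, so here animal 3 did not stand below the others. Going away from the gene, the 3 windows past AXIN1 had 3.01, 1.51 and 1.39 RPKM and those past AXIN2 1.22, 0.411 and 1.00. Those upstream had 0.198, 1.08 and 2.40 RPKM for AXIN1 and 0.0142, 0.454 and 1.70 for AXIN2. High signal was therefore not confined to the 2 genes.

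The 10 windows of highest mean signal were 4 of AXIN1, 4 of LRP5 and 2 of WNT7A. The first was the last window of AXIN1 (chr25:313801-316800), with 3.93 ± 1.81 RPKM and from 1.59 to 5.77 over libraries. It was followed by AXIN1 chr25:322801-325800 with 3.91 ± 1.40 RPKM and by LRP5 chr29:46484919-46487918 with 3.30 ± 1.30 RPKM. The strongest WNT7A window, chr22:58851067-58854066, had 2.63 ± 1.07 RPKM and held no coding sequence. The first 3 means differed by less than their SD, and the 10th window had 2.27 RPKM.

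The antagonists had a start median of 0.0433 ± 0.00392 RPKM, within the spread of the ligands, with 6 of 8 under 0.1, and none had a start or a body above 0.5 RPKM. The body median was 0.197 ± 0.0298 RPKM, and without animal 3 the values were 0.0426 and 0.208. The medians of SFRP and DKK genes were 0.307 ± 0.0651 and 0.113 ± 0.0250 RPKM in the body. At the start they were 0.0414 ± 0.00429 and 0.0921 ± 0.0307 RPKM. This SD is over libraries and does not measure the spread between the genes of a family, whose levels overlapped. Bodies ran from 0.0445 to 0.441 RPKM in SFRP and from 0.0143 to 0.244 in DKK genes. Starts ran from 0.0123 to 0.0712 and from 0.0193 to 0.347 RPKM, so no difference between the families was shown.

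DKK4 (chr27:36903167-36909166), known from the formation of skin appendages, had the highest antagonist start, with 0.431, 0.431 and 0.186 RPKM at 5 months and 0.401, 0.433 and 0.198 RPKM at 16 months. DKK3, the divergent member that does not bind LRP5 or LRP6 like the others, and SFRP5 followed with 0.154 and 0.0712 RPKM. SFRP4 and DKK2 had the lowest starts, at 0.0123 and 0.0193 RPKM. In the body SFRP1 (chr27:35898167-35946166) led with 0.542, 0.467 and 0.269 RPKM at 5 months and 0.534, 0.483 and 0.353 RPKM at 16 months, followed by SFRP5 with 0.407 ± 0.117 and DKK3 with 0.244 ± 0.0562 RPKM. The highest window of SFRP1 was the 8th of 16, outside coding sequence, at 1.31 ± 0.343 RPKM. DKK1 (chr26:6851531-6857530), the prototype inhibitor of LRP5 and LRP6, was at the other end with 0.0143 ± 0.0161 RPKM in the body, above only 5.98% of gene bodies, and 2.17 reads on average. DKK2 was next lowest with 0.0399 ± 0.0134 RPKM, and 39 of its 42 windows were under 0.1 RPKM.

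**Figure D3:**
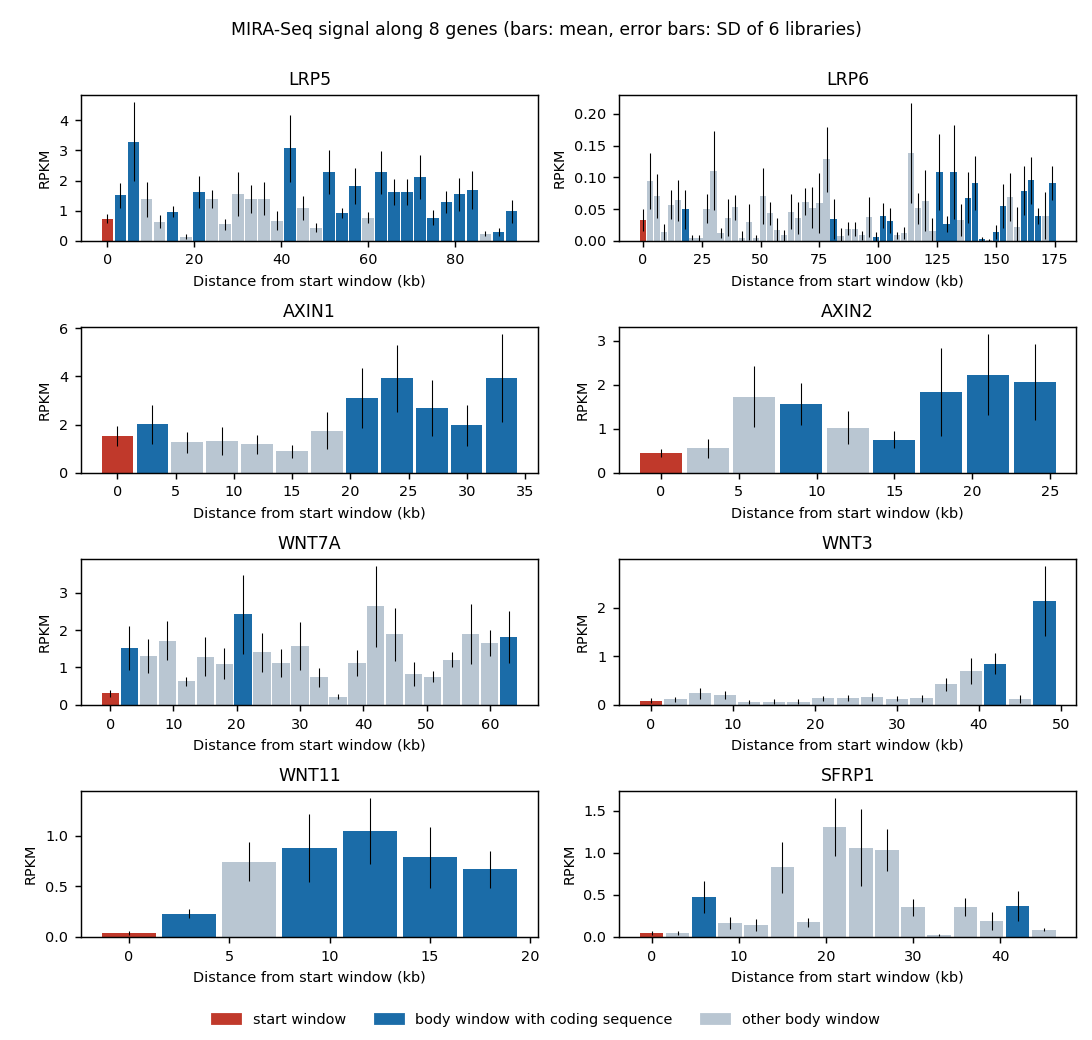
RPKM in the labelled windows of 8 genes in the direction of transcription (bars: mean, lines: SD, n = 6 libraries), against distance from the start window in kb, each gene with its own vertical scale. LRP5, AXIN1, AXIN2 and WNT7A carry signal along the gene, the highest LRP6 window has 0.139 RPKM, WNT3 peaks in its last window at 2.13 RPKM, and SFRP1 peaks in windows without coding sequence.

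Within the body, windows whose label carries a coding sequence number had more signal than other windows. The 123 coding body windows of the members had a median of 0.369 RPKM and 57 of them (46.3%) were above 0.5, against 0.0583 RPKM and 43 of 224 (19.2%) for the other body windows. Over all labelled genes these medians were 0.0699 and 0.0354 RPKM, with 19.8% and 5.04% above 0.5. Within the 22 members that had both kinds, coding windows had the higher mean in 19, and in 16 of these in each of the 6 libraries, with a median ratio of 2.07. Over the 11645 such genes of the genome it was higher in 69.6%, with a median ratio of 1.61. The ratio was large in WNT3 (1.49 against 0.192 RPKM) and WNT3A (0.705 against 0.137), and LRP5 (1.65 against 0.893) and AXIN1 (2.93 against 1.28) had much signal in both. The exceptions were SFRP1 (0.423 against 0.444), WNT11 (0.721 against 0.745) and FZD6 (0.0714 against 0.0744), where the values were close.

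Some WNT genes lie in pairs that are old duplicates, and 4 such pairs had labelled windows within 100 kb of each other. WNT9B and WNT3 point away from each other across 42 kb on chromosome 19, and the 14 windows between them had 0.0966 ± 0.0202 RPKM. WNT3A and WNT9A, arranged alike on chromosome 7, had 0.247 ± 0.0695 RPKM over 22 windows in 66 kb, with a window of 1.26 RPKM among them. WNT1 and WNT10B have 1 window between them, at 0.0183 ± 0.0128 RPKM, and WNT6 and WNT10A have 2, at 0.0765 ± 0.0219 RPKM. Partners of a pair could differ. WNT9B had 0.0328 ± 0.0184 RPKM at its start and 1.22 in its body while WNT3 had 0.0833 and 0.355, and WNT1 had 0.0751 ± 0.0338 RPKM in its body while WNT10B had 0.590 ± 0.225. The bodies of WNT6 and WNT10A, at 0.207 ± 0.0366 and 0.290 ± 0.0867 RPKM, overlapped.

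Whether the start of a gene differed from its body was tested with limma over 18395 genes, on the difference of log2(RPKM + 0.02) averaged over the ages of each animal (n = 3 animals). Of the 35 members tested, the start was lower than the body in 18, higher in 2 and neither in 15, at an FDR below 0.05 and a difference of at least 2-fold. Over all genes tested, percent_called was 40.3 for a lower start and 11.2 for a higher one. The members' median difference was −1.03, with library medians from −1.38 to −0.89, against −0.69 over all genes, and 71.4% of members and 71.0% of all genes were below 0. Without animal 3 it was 19 lower and 3 higher. FZD7, FZD8 and FZD9 have no body, and DKK1 had fewer than 10 reads.

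By role, 11 of 17 ligands had a lower start and none a higher one, with a median difference of −2.01. The antagonists had 4 of 7 lower, all of them SFRP genes (SFRP1, SFRP2, SFRP4 and SFRP5), and the 3 DKK genes tested did not pass. Of 7 receptors 2 were lower and 2 higher, with a median of 0.22. AXIN2 was lower and AXIN1 did not pass, and neither co-receptor passed.

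WNT9B had the most negative difference, −4.52 (SE 0.32, adjusted p = 5.91e-07). Its start had 0.0616, 0.0386 and 0.0266 RPKM at 5 months and 0.0196, 0.00922 and 0.0410 RPKM at 16 months, and its body 1.35, 1.58 and 0.620, and 1.42, 1.74 and 0.636 RPKM. All 6 libraries had the body far above the start. FZD1 was next at −4.09 (SE 0.25, adjusted p = 2.86e-07). WNT11, a ligand of convergent extension, differed by −3.60 (SE 0.32, adjusted p = 2.32e-06), with a start of 0.0415 RPKM and a body of 0.725 ± 0.198 RPKM. FZD4 (−3.54), WNT8B (−3.37), WNT10B (−3.17), SFRP1 (−2.77) and SFRP5 (−2.31) completed the 8 most negative. Each of these 8 genes was lower at the start in every library.

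The higher starts were those of FZD5, at 4.77 (SE 0.28, adjusted p = 2.55e-07), and of FZD2, at 3.11 (SE 0.35, adjusted p = 1.49e-05). FZD2 had 0.574, 0.451 and 0.240 RPKM at 5 months and 0.553, 0.387 and 0.219 RPKM at 16 months at its start, and 0, 0.0129 and 0.0213, and 0.0342, 0.0553 and 0.0684 RPKM in its second window, with no overlap. Next came WNT5B at 0.72 (SE 0.25, adjusted p = 0.0251), FZD3 at 0.70 and WNT9A at 0.61 (SE 0.25, adjusted p = 0.0457), all under 2-fold. LRP5 had −0.81 (SE 0.25, adjusted p = 0.0145), also under 2-fold, AXIN1 −0.45 (SE 0.26, adjusted p = 0.144) and LRP6 −0.33 (SE 0.25, adjusted p = 0.259). The 2 receptors with a higher start, and FZD1 and FZD4 with a lower one, have 2 windows each, so these calls compare 1 window with its neighbour and depend on where the grid cuts the gene. Among the 26 members with at least 3 windows, a choice made after seeing the data, 15 were lower and 0 higher. Over all 15592 genes with at least 3 windows, 41.4% were lower and 9.02% higher.

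**Figure D4:**
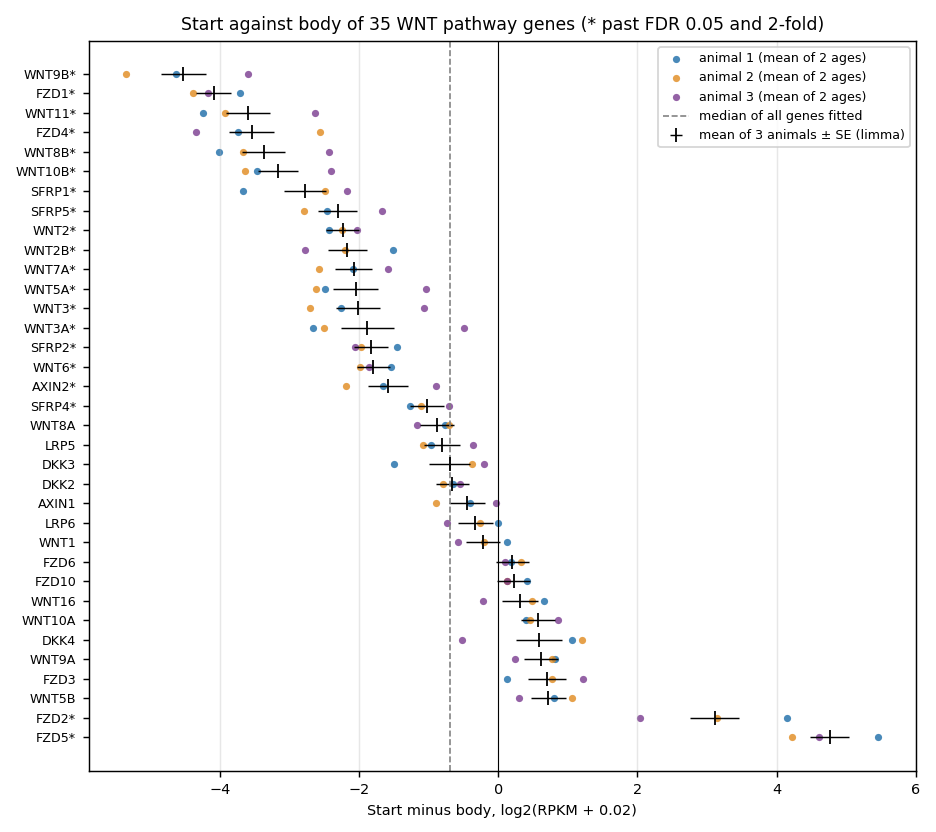
Start minus body, as a difference of log2(RPKM + 0.02), for the 35 genes tested, with 1 point per animal (mean of both ages), the mean of 3 animals with its SE from limma, and a star where the FDR is below 0.05 and the difference at least 2-fold. The genes run from WNT9B at −4.52 to FZD5 at 4.77, and the dashed line marks the median of all 18395 genes, −0.69.

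Among 41 other genes of the pathway tested, 20 had a lower start and 6 a higher one, with a median difference of −0.98. Over all 18395 genes tested, 40.3% had a lower start and 11.2% a higher one, with a median of −0.69. The difference was below 0 in 75.6% of these pathway genes and 71.0% of all genes. The signal transducers DVL1 (−4.90, adjusted p = 3.00e-07) and DVL3 (−3.49, adjusted p = 4.91e-07), the kinase GSK3A (−4.04, adjusted p = 4.73e-07) and the β-catenin cofactor BCL9L (−4.64, adjusted p = 6.08e-07) had the lowest p. Their start median, 0.0379 ± 0.00847 RPKM over 43 genes, and body median, 0.154 ± 0.0281 RPKM, were below those of the 39 members.

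Whether age changed the signal was asked in a quasi-likelihood model of edgeR in which the animal was a block, and no member differed between 5 and 16 months by the study's thresholds (FDR below 0.1 and at least 2-fold). Of the 386 member windows, 145 had at least 1 CPM (count per M reads) in 3 libraries and were tested, 68 of them higher at 5 months and 77 lower, and 0 were called. Over all 104658 windows tested, percent_called was 0.185, with 0.105 higher at 5 months and 0.0803 higher at 16 months. At an unadjusted p under 0.05 there were 7 of 145 members (4.83%), against 7.10% of all windows, and the likelihood-ratio test and DESeq2 also called 0. In 24 of the 145 member windows all 3 animals moved the same way, a smaller share than the 26.0% of all windows. The fold change was under 2-fold in 144 member windows, with a median SE of 0.23 on the log2 scale. At gene starts 0 of 13 tested were called and at bodies 0 of 30, with a percent_called of 0.0 over 5758 starts and 0.0129 over 15533 bodies. DESeq2 called 0 of both, and the likelihood-ratio test called 1 member start, of 31 over all starts, and 0 bodies. At an unadjusted p under 0.05 there were 2 of 13 member starts (15.4%), against 8.49% of all starts, and 0 of 30 bodies, against 0.444% of all bodies. The other 26 starts, with 2 to 26.7 reads on average, did not pass this filter. With no filter on low counts all 39 starts were tested and 0 were called, with 3 at an unadjusted p under 0.05.

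The window with the lowest p, and the only one past 2-fold, was that of FZD8 (chr13:27056097-27059096), a receptor of β-catenin signalling that lies in this single labelled window. It had 1.75, 2.29 and 2.25 CPM at 5 months in animals 1, 2 and 3 and 0.764, 1.09 and 0.762 CPM at 16 months, from 15 to 69 reads. All 3 cultures at 5 months were above all 3 at 16 months, by 0.83, 0.81 and 1.13 on the log2(CPM + 0.5) scale within animals. The log2 fold change was 1.26 (SE 0.39) with an adjusted p of 0.203 by edgeR's quasi-likelihood test, and 1.26 (SE 0.35, adjusted p = 0.274) in the test over gene starts, so it did not pass. Over gene starts it passed by the likelihood-ratio test (adjusted p = 0.0587), with a filter of 0.5 CPM (adjusted p = 0.0665) and without animal 3 (adjusted p = 0.0839). Under these settings 31 of 5758, 52 of 8709 and 204 of 5871 starts were called in all. Over windows its adjusted p ran from 0.147 to 1 under the alternatives.

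Next was a coding window of AXIN2, chr19:62840675-62843674, with a log2 fold change of −0.71 (SE 0.24, adjusted p = 0.308). It had 4.37, 9.24 and 9.92 CPM at 5 months and 12.5, 18.6 and 7.37 CPM at 16 months, so animals 1 and 2 were higher at 16 months and animal 3 was lower. With scaling to library size only and all 6 libraries, it had −0.69 with an adjusted p of 0.0344, under 2-fold. Without animal 3 the log2 fold change was −1.22 (SE 0.19, adjusted p = 3.70e-06) and this window was called, along with 1278 of 103419 windows in all. FZD5, FZD9, WNT9A, WNT7A and AXIN1 then each had 1 window below an FDR of 0.1 and under 2-fold, all higher at 16 months. In that fit 26 of 144 member windows and 14221 of 103419 windows in all had an unadjusted p under 0.05 (quasi-likelihood test). The neighbouring AXIN2 window, chr19:62843675-62846674, had −0.51 (SE 0.21, adjusted p = 0.525), with 3.13, 3.68 and 3.81 CPM at 5 months and 5.04, 4.76 and 5.23 CPM at 16 months, which do not overlap.

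The other windows among the 10 lowest p were lower at 5 months in SFRP1 (−0.68), FZD10 (−0.54), SFRP2 (−0.54), WNT9A (−0.43) and WNT2B (−0.39) and higher in WNT5B (0.65) and SFRP5 (0.42), with adjusted p from 0.580 to 0.780. Of these, SFRP1, FZD10, SFRP2, WNT5B and SFRP5 moved the same way in all 3 animals. After FZD8, the starts with the lowest p were FZD10 at −0.54 (adjusted p = 0.586) and FZD5 at −0.27 (adjusted p = 0.817), and the bodies were FZD1 at 0.36, WNT9A at −0.38 and DKK2 at −0.33, each with an adjusted p of 1. Without animal 2 the bodies of DKK2 (−0.71, adjusted p = 0.0437) and LRP6 (−0.52, adjusted p = 0.0811) were below the FDR but under 2-fold, in a fit where 4405 of 15663 bodies had an unadjusted p under 0.05, with 3 of 31 members among them, and 328 were called. Among 186 other pathway windows 1 was called, against a percent_called of 0.185 over all windows. It lies in SP5, a target gene of the pathway, on chr2:25773034-25776033, with −2.29. The paper already lists this window among its regions that differ by age, with more methylation in the older cultures. The list of other pathway genes was chosen with earlier results of these data known, so this count does not set the list apart.

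**Figure D5:**
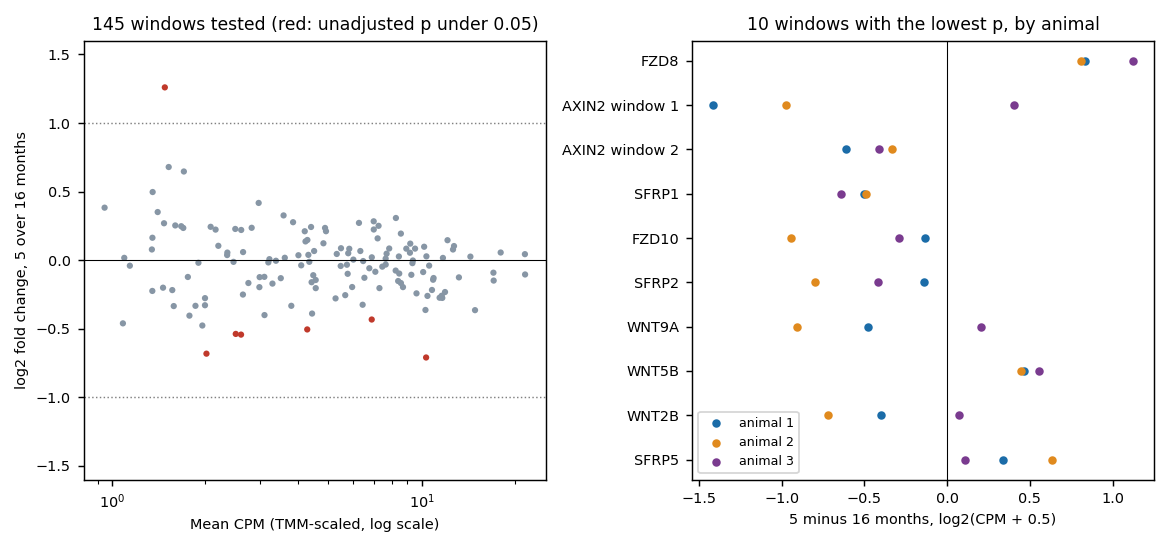
Left, log2 fold change (5 over 16 months, edgeR) against mean CPM on a log axis for the 145 member windows tested, with windows at an unadjusted p under 0.05 in red and 2-fold marked by dotted lines. Right, the difference of log2(CPM + 0.5) between the ages in each animal for the 10 windows of lowest p: only FZD8 passes 2-fold on the left, and its 3 animals lie from 0.81 to 1.13.

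No change with age in the difference between start and body was detected by limma over the same genes, where 0 of 18395 were called (percent_called 0.0). At an unadjusted p under 0.05 there was 1 of 35 members, against 3.54% of all genes. This was FZD2, whose start stood above its second window by 1.37 more at 5 months (SE 0.36, adjusted p = 1), by 1.49, 1.40 and 1.22 in animals 1, 2 and 3. Its second window held 4.83 reads on average.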

How the data were processed

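After quality filtering, the authors aligned the reads to UMD v3.1 with NextGENe 2.3.4 and deposited raw read counts for sequential windows of 3 kb, with no normalization. The deposited files also give the highest coverage depth of each window, a signal not scaled to library size, which was used only to look for stacks of reads. No source used here says how PCR copies were handled, and counts are not independent molecules. RPKM was computed over the matched reads of the file headers, with 32.5 to 68.1 M per library.

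Counts were tested in R 4.3.3 with edgeR 4.0.16 (quasi-likelihood, animal as block, TMM factors, Benjamini-Hochberg adjustment over all features tested). The likelihood-ratio test named in the study's methods and DESeq2 1.42.0 were alternatives. Start and body were compared with limma 3.58.1 (eBayes), among genes with at least 10 reads in start plus body. The SE of edgeR fold changes was taken from the F statistic. Python 3.11.15 was used for the descriptions. The pairing comes from the animals, and the deviations from the age means correlated at 0.290, 0.544 and 0.710 within animals 1, 2 and 3. With 1 culture per animal and age, the edgeR p-values rest on how the age difference varied between these animals. Spread between cultures cannot be told apart from it. That variation was pooled over all features, in part for windows and starts and fully for bodies. The weight of the pooling, in prior degrees of freedom, was 178 for windows, 16.1 for starts and infinite for bodies. The own variation of a window therefore had little weight in its p-value, and that of a body had none. The limma p-values rest on the spread between animals, also pooled in part over all genes.

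In simulated data on 104658 windows by age, the fit called 197 of 200 windows that had a 4-fold change, with 10 false calls. It called 55 of 200 at 2-fold, with 1 false call, and 0 where nothing changed. The simulated counts had the spread of the fitted model and the same fold in every animal. They therefore do not show how often calls are missed or false where animals differ in their change with age.

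The members, the list of other pathway genes and the tests were chosen with earlier results of these data known. Named were the members with the highest and lowest levels in each role, the most negative and positive start-body differences, all calls, the lowest p, the 10 strongest windows, neighbouring pairs, and at most 5 other pathway genes. Alternatives were other tests, scalings, filters, pseudocounts, start definitions and summaries, no block, and leaving out each animal.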

Additional observations from a re-analysis of the deposited data

How the results depend on the processing

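The age calls were few under every alternative run. Leaving out each animal gave 0 to 1 member windows and 0 to 1 member starts against 0 of each, the likelihood-ratio test and the filter of 0.5 CPM gave 1 start each (FZD8), of 31 of 5758 and 52 of 8709 starts called in all, and bodies stayed at 0. Without the replicate block, which drops the pairing by animal, 0 windows, 0 starts and 0 bodies were called, as with it. Over all windows the count was 194 with the block, 0 without it, 15 by DESeq2, and 14, 68 and 1278 without animals 1, 2 and 3, so that count depends on each of the animals. The count of lower starts stayed between 15 and 20. The 2 higher starts became 0 among genes with at least 3 windows, where 9.02% of all such genes had a higher start. The median start minus body of −1.03 became −1.61 and −0.75 with pseudocounts of 0.005 and 0.1 RPKM, −1.69 with at least 50 reads, −1.69 among genes with at least 3 windows and −1.43 with 5-month libraries only (−0.87 with 16-month libraries only), so its size depends on the pseudocount and on low genes. As a mean over genes in place of a median, the level became 0.269 RPKM in ligand starts, 0.50 in ligand bodies, 0.576 in receptor starts, 0.362 in receptor bodies and 0.0912 in antagonist starts. Scaled to reads in windows, the levels became 0.0957, 0.579, 0.356, 0.154 and 0.0707 in the same order and 0.321 in antagonist bodies. With the upstream window added, receptor starts became 0.129 and antagonist starts 0.0677 RPKM, with ligand starts at 0.0635. In the remaining 77 comparisons of a value with an alternative, the value stayed within its spread or its side of the threshold. Depth limits windows of few reads, and the median member window held 13.2 reads.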

Other observations

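In the 143 member windows with at least 30 reads on average, the highest depth of coverage at any position came to a median of 0.177 times the reads of the window and to at most 0.479, and in no window did all reads stack at 1 position.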
